A study of Homo sapiens with 8 samples.

Results

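The comparison of mivebresib with its vehicle in MP38 uveal melanoma (UM) cells covered all genes of the raw count table, in 4 of the 8 bulk RNA sequencing libraries, with 2 in each group. MP38 is a BAP1-mutant UM cell line. Cells of the control group were grown for 24 h in 0.1% DMSO, and cells of the mivebresib group for 24 h with 1200 nM mivebresib in the same 0.1% DMSO. The other 4 libraries came from cells treated for 24 h with 40 nM quisinostat or 40 nM romidepsin, both histone deacetylase (HDAC) inhibitors, in 0.1% DMSO, and served to set the drugs side by side where the response to mivebresib differed. All libraries came from this 1 line, and replicates were separate wells, so p-values measure the spread between wells and not between lines or tumors.

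Mivebresib (ABBV-075) is an inhibitor of the BET family of proteins, such as BRD2 and BRD3. Their bromodomains bind acetylated lysines on histones, and the chromatin-bound protein brings the kinase complex P-TEFb (CDK9 with a cyclin T) to promoters and enhancers, where it releases paused RNA polymerase II. A pool of P-TEFb is kept inactive in a complex of 7SK RNA with HEXIM1 or HEXIM2, and genes near large clusters of enhancers, such as lineage factors, are known for their dependence on BET proteins.

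The libraries held between 28483235 and 29359024 counts. Of 35238 gene symbols, 15085 passed the filter on low counts and were tested with edgeR's quasi-likelihood test in a model of all 8 libraries, with Benjamini-Hochberg adjustment. Fold changes (log2 FC) are mivebresib against control and carry the standard error (SE) of the fit, and CPM, the counts of a gene relative to its library's total, are scaled by TMM factors. The control libraries differed from each other more than the other replicate pairs, with a chi-square per degree of freedom of 58.1 against 9.52 to 9.79, and the median absolute log2 difference over genes was 0.23 between them and 0.13 between the mivebresib libraries. Short genes stood higher in control replicate 1, by a median log2 difference of 0.19 over the shortest 10% of protein-coding genes and of -0.10 over the longest 10%. Melanocytic markers were abundant, led by TYRP1 at 84245 and 112687 counts in the control libraries and 84041 and 87943 with mivebresib, while DCT had at most 5 counts. Some listed markers of other cell types had no count in the 4 libraries. These were LUM of fibroblasts, CD3E of T cells, CDH5 of endothelium, KRT5 of epithelium and RLBP1 of retinal pigment epithelium. Other members of the same lists were expressed, and some changed. Sums were taken only over the markers that passed the filter and were tested. The 2 tested of 6 fibroblast genes summed to 1.77 to 2.30 CPM in the controls and 1.21 to 1.76 CPM with mivebresib. The 3 tested of 6 epithelial genes summed to 4.64 to 5.07 CPM and 6.47 to 6.51 CPM. Of 6 leukocyte genes only CD68 was tested (1699 to 2272 counts), at 65.8 to 83.0 CPM and 61.1 to 70.2 CPM. The 2 tested of 4 endothelial markers summed to at most 1.3 CPM. The 2 tested of 4 markers of retinal pigment epithelium ran from 10.2 to 12.6 CPM and from 6.77 to 8.6 CPM, nearly all from BEST1. At an adjusted p below 0.05, KRT18 of epithelium was higher (log2 FC 1.14, adjusted p = 0.0046) and 1 epithelial gene was lower. BEST1 was lower (log2 FC -0.73, adjusted p = 0.0044), and the other tested marker of retinal pigment epithelium was higher. Of the fibroblast genes 1 was lower, but not with the 4 libraries alone. The lower fibroblast and epithelial genes and the higher gene of retinal pigment epithelium passed both thresholds given below. Whether these levels or changes bear on any result was not tested.

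Mivebresib changed the expression of many genes in both directions. At an adjusted p below 0.05, 3342 genes were higher, 22.2% of those tested, and 3628 were lower, 24.1%. With a log2 FC beyond 1.5 as well, 598 genes (3.96%) were upregulated and 657 (4.36%) downregulated. Among genes with an average log2 CPM over the 8 libraries of at least 3, these numbers were 115 and 266, and the other genes past both thresholds lay below this level. The median log2 FC over all tested genes was 0.0067, so changes are read against a centre near 0. Each gene group is described by its counts, to be read against these shares of all tested genes at the same thresholds, and no test of a group was made. With the 4 libraries alone, 2484 of all tested genes were higher and 2803 lower at an adjusted p below 0.05. Counts over all genes thus also change with the libraries used, and no share over all genes is given beside list counts with 1 library left out. A change in such a list count is therefore not to be read as particular to that list. Of all tested genes, 69.7% had both mivebresib libraries on 1 side of both controls in CPM, and this held for every gene described here as having risen or fallen.

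**Figure D1:**
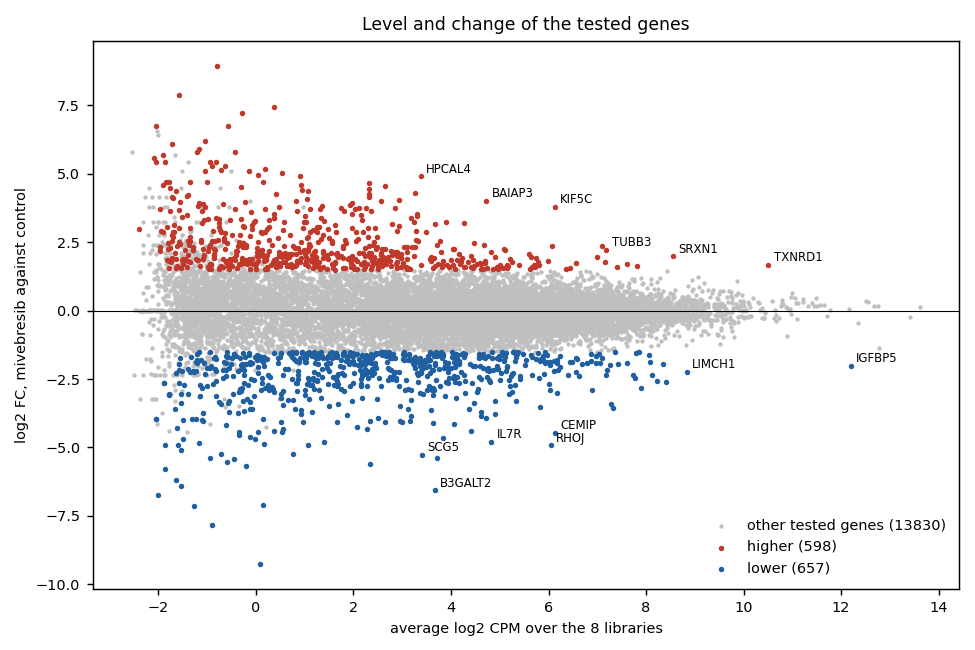
Each point is 1 of the 15085 tested genes, with its average log2 CPM over the 8 libraries on the x axis and its log2 FC with mivebresib on the y axis. Red marks the 598 upregulated and blue the 657 downregulated genes, and IGFBP5, among the most abundant genes of the line, lies at a log2 FC of -2.01. Fold changes spread most among the low-count genes at the left.

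At an average log2 CPM over the 8 libraries of 3 or more, the largest rise was that of HPCAL4, a neuronal calcium sensor, from 4 and 7 counts in the control libraries to 176 and 156 with mivebresib (log2 FC 4.90, SE 0.26, adjusted p = 5e-06). ABCB1 (chromosome 7, 87503633 to 87713323, minus strand), which encodes the drug efflux pump P-glycoprotein, rose from 19 and 32 to 461 and 525 counts (log2 FC 4.28, SE 0.25, adjusted p = 6.6e-06). It overlaps RUNDC3B on the opposite strand, and whether the counting used strand is not given in the sources used here. BAIAP3, a regulator of dense-core vesicle traffic, rose from 125 and 145 to 2258 and 2075 counts (log2 FC 4.01, adjusted p = 1e-06). KIF5C, a neuronal kinesin, rose from 61 and 86 to 982 and 1034 counts (log2 FC 3.79, adjusted p = 1.5e-06). The other rises of this rank were those of CDK5R2 (3.53), FAM171B (3.47), MAN1A1 (3.40), NGFR (3.23), ROBO1 (3.23) and GFPT2 (3.19).

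The most abundant upregulated gene was TXNRD1 (chromosome 12, 104215779 to 104350305, plus strand), the cytosolic thioredoxin reductase, which rose from 24019 and 23750 counts in the control libraries to 77091 and 74594 with mivebresib (log2 FC 1.68, SE 0.09, adjusted p = 5.8e-06). SRXN1, which restores oxidized peroxiredoxins, rose from 6794 and 5193 to 25222 and 21683 counts (log2 FC 1.98, SE 0.14, adjusted p = 1.5e-05). The beta-tubulin isotype TUBB3 rose from 2271 and 2090 to 10550 and 9665 counts (log2 FC 2.23, adjusted p = 2.3e-06). The GTPase RHOB rose from 3502 and 2563 to 9864 and 8292 counts (log2 FC 1.60, adjusted p = 5.6e-05). SAT1, the first enzyme of polyamine breakdown, rose from 2697 and 2177 to 8761 and 7942 counts (log2 FC 1.79, adjusted p = 9.1e-06). TXNIP, the inhibitor of thioredoxin, also rose, from 1513 and 1474 to 4733 and 5118 counts (log2 FC 1.73, adjusted p = 2.3e-06). Of the same rank in abundance were CPNE3 (1.64), CPA4 (1.94) and DGAT1 (1.56), the last an enzyme of triglyceride synthesis.

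The largest fall among genes of this level was that of B3GALT2, a beta-1,3-galactosyltransferase, from 750 and 794 counts in the control libraries to 11 and 5 with mivebresib (log2 FC -6.56, SE 0.20, adjusted p = 7.8e-07). Its value rests on few counts in the treated cells and was -7.24 without mivebresib replicate 1 and -6.09 without mivebresib replicate 2. ESRP1, a splicing regulator of epithelial cells, fell from 736 and 489 to 14 and 15 counts (log2 FC -5.37, adjusted p = 2.6e-06). SCG5, a chaperone of prohormone convertase 2, fell from 656 and 476 to 22 and 7 counts (log2 FC -5.26, adjusted p = 9.9e-06), with a log2 FC of -6.32 without mivebresib replicate 1 and -4.65 without mivebresib replicate 2. RHOJ, a GTPase of the CDC42 family, fell from 3696 and 3039 to 109 and 111 counts (log2 FC -4.92, SE 0.13, adjusted p = 5.6e-07). IL7R, the alpha chain of the interleukin 7 receptor, fell from 1277 and 1778 to 55 and 54 counts (log2 FC -4.80, SE 0.21, adjusted p = 2.3e-06). DHRS3, a retinaldehyde reductase, fell from 952 and 1078 to 44 and 36 counts (log2 FC -4.65, adjusted p = 9.3e-07). CEMIP, which takes part in the breakdown of hyaluronan, fell from 2185 and 3138 to 126 and 112 counts (log2 FC -4.47, adjusted p = 2.7e-06). In each of these genes both treated libraries lay more than 10-fold below the lower control library. SGCD (-4.38), of the sarcoglycan complex, and SORBS2 (-4.16), a cytoskeletal adaptor, fell by similar amounts.

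The sequences of the 150 bases before the start of B3GALT2, IL7R and RHOJ are shown because these genes are among the 5 largest falls at this level. The sequences come from RefSeq (GRCh38.p14), before the most upstream start it lists. They lie at chr1:193186614-193186763 (minus strand), chr5:35856741-35856890 (plus strand) and chr14:63204293-63204442 (plus strand), and each is written 5′ to 3′ on the strand of its gene. Capitals mark, on either strand, 6 motifs that were searched: the TATA box TATAAA, the CCAAT box by its own letters, the E-box CACGTG, the GC box GGGCGG, the AP-1 site TGACTCA and the E-box form CATGTG.
B3GALT2: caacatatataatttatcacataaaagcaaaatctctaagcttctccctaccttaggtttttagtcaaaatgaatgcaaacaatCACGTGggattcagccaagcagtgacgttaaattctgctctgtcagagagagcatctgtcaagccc
IL7R: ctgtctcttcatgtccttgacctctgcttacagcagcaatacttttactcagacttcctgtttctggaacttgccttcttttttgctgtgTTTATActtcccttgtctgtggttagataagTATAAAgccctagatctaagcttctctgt
RHOJ: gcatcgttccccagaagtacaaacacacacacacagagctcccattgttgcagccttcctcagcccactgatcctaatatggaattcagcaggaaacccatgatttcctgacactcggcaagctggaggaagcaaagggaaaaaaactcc
In this window B3GALT2 holds a CACGTG (E-box) whose first base is at -66, IL7R holds a TATAAA at -29 and a second on the other strand at -60, and RHOJ holds none of the 6 motifs. Of the 27305 promoters in the table, 4.63% hold CACGTG and 7.14% hold TATAAA in the same window.

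The most abundant downregulated gene was IGFBP5 (chromosome 2, 216672105 to 216695525, minus strand), a secreted binding protein of insulin-like growth factors, which fell from 114226 and 172853 counts in the control libraries to 36166 and 34708 with mivebresib (log2 FC -2.01, SE 0.20, adjusted p = 9.7e-05). Control replicate 1 lay well below control replicate 2, and the mivebresib libraries were lower than both. The log2 FC was -2.30 without control replicate 1 and -1.66 without control replicate 2. LIMCH1, an activator of non-muscle myosin, fell from 17519 and 17878 to 3644 and 3819 counts (log2 FC -2.23, adjusted p = 1.5e-06). FBXO32, a muscle F-box protein, fell from 10137 and 9796 to 1827 and 2072 counts (log2 FC -2.34, adjusted p = 1.5e-06). The oxytocin receptor gene OXTR fell from 10291 and 14673 to 3269 and 3157 counts (log2 FC -1.95, adjusted p = 4.8e-05). PHACTR1, a regulator of actin and protein phosphatase 1, fell from 13997 and 10461 to 1666 and 1735 counts (log2 FC -2.83, adjusted p = 3.1e-06). HDGF (-1.51), RNF145 (-1.86) and EPB41L2 (-1.62) were of the same rank. OXTR overlaps CAV3 and PHACTR1 overlaps TBC1D7 on the opposite strand.

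The transcripts of the drug's own targets and of the elongation machinery changed unequally. HEXIM1 (chromosome 17, 45148502 to 45152101, plus strand), the inhibitor of P-TEFb that is widely used as a marker of BET inhibitor exposure, rose from 3103 and 3091 counts in the control libraries to 7336 and 7092 with mivebresib (log2 FC 1.23, SE 0.08, adjusted p = 1.3e-05). BRD2 (chromosome 6, 32968660 to 32981505, plus strand) rose from 5017 and 4774 to 11061 and 10516 counts (log2 FC 1.15, SE 0.08, adjusted p = 1.5e-05). Replicates of both genes lay close together, and neither set of libraries approached the other. BRD3 (0.28) and CDK9 (0.28) passed the threshold on the adjusted p narrowly. Both calls were lost with the 4 libraries alone and without either mivebresib library, that of BRD3 also with DESeq2 and without control replicate 1, and that of CDK9 without control replicate 2.

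HEXIM1 is shown with its promoter because its rise is the reference response to this class of drug. The 150 bases before its start, at chr17:45148325-45148474 on the plus strand, are written 5′ to 3′ with the same motifs in capitals.
HEXIM1: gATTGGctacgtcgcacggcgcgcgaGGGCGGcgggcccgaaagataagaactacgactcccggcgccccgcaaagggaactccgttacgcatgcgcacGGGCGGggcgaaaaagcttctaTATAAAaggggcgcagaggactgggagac
This window holds TATAAA at -29, GGGCGG at -124 and -51, and a CCAAT on the other strand at -149. GGGCGG occurs in 36.6% and CCAAT in 24.4% of the promoters in the table in this window.

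HEXIM2, the alternative inhibitor of P-TEFb, fell from 253 and 226 to 87 and 62 counts (log2 FC -1.67, SE 0.18, adjusted p = 0.00015). POLR2A, the largest subunit of RNA polymerase II, rose from 3352 and 4407 to 5901 and 6929 counts (log2 FC 0.73, adjusted p = 0.0035). RTF1, of the PAF complex, rose from 2362 and 2326 to 4165 and 4177 counts (log2 FC 0.84, adjusted p = 4.4e-05). MLLT3, of the super elongation complex, rose from 378 and 346 to 690 and 672 counts (log2 FC 0.92, adjusted p = 5.6e-05). AFF3, also of the super elongation complexes, fell from 379 and 379 to 169 and 211 counts (log2 FC -0.98, adjusted p = 0.00023). JMJD6, a factor of pause release, fell from 848 and 732 to 396 and 426 counts (log2 FC -0.93, adjusted p = 0.00011). The Mediator subunit MED12 fell from 806 and 1054 to 514 and 606 counts (log2 FC -0.72, adjusted p = 0.0041). Of the whole list of BET proteins, P-TEFb and elongation factors, 51 were tested, 17 of them higher (8 without mivebresib replicate 1 and 9 without mivebresib replicate 2) and 10 lower, with a median log2 FC of 0.10, against 22.2% and 24.1% of all tested genes, and HEXIM2 was its 1 member past both thresholds.

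**Figure D2:**
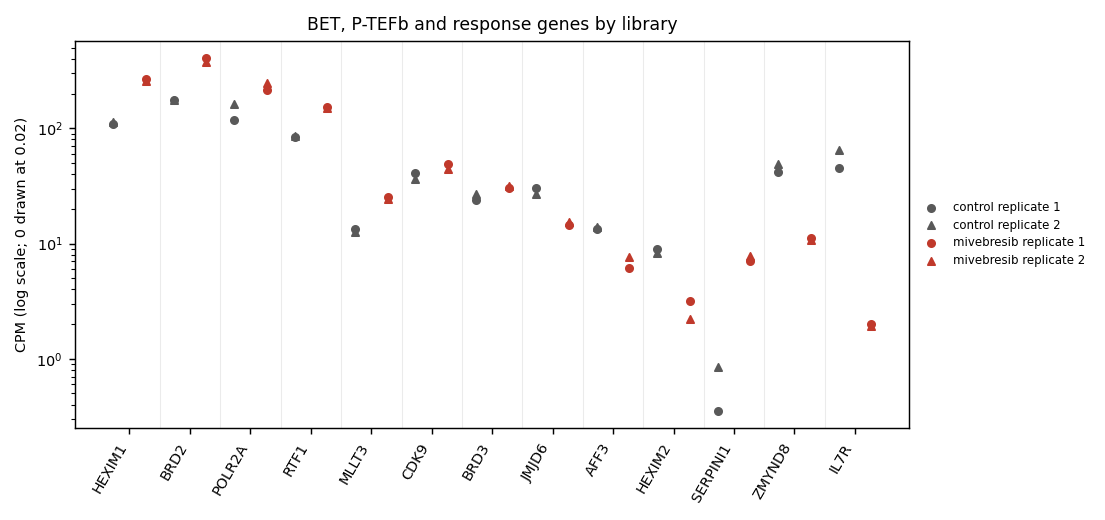
CPM of 13 genes on a log axis in the 2 control libraries (gray) and the 2 mivebresib libraries (red), circles for replicate 1 and triangles for replicate 2. HEXIM1 and BRD2 sit higher with mivebresib, and HEXIM2, ZMYND8 and IL7R sit lower.

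Of 12 genes listed as known responders to BET inhibitors, 9 were tested, 3 were higher and 5 lower. SERPINI1, the neuronal serpin neuroserpin, rose from 10 and 23 counts in the control libraries to 193 and 217 with mivebresib (log2 FC 3.63, SE 0.28, adjusted p = 2.6e-05), and was at 4.37 without control replicate 2. ZMYND8, a chromatin reader, fell from 1185 and 1335 to 308 and 296 counts (log2 FC -2.05, SE 0.10, adjusted p = 3.3e-06). The cell cycle kinase gene CDK6 fell from 4622 and 4829 to 2781 and 2978 counts (log2 FC -0.70, adjusted p = 0.00016). MYC, the oncogene whose loss is the best known effect of BET inhibitors in blood cancers, rose from 2880 and 2760 to 4799 and 4806 counts (log2 FC 0.78, SE 0.07, adjusted p = 5.6e-05). Both mivebresib libraries were above both controls for MYC. In the network of MYC partners, 13 were tested, 4 of them higher (2 without mivebresib replicate 1) and 2 lower, with a median log2 FC of 0.01 (-0.01 without control replicate 1 and -0.04 without mivebresib replicate 2). Of the genes of ribosome biogenesis and growth, 44 were tested, 10 of them higher and 10 lower (6 without mivebresib replicate 1 and 5 without mivebresib replicate 2), with a median log2 FC of -0.02 (0.03 with upper-quartile factors and 0.04 without control replicate 2), beside 22.2% and 24.1% of all genes. Among them the polyamine enzyme gene ODC1 rose from 4526 and 3491 to 7864 and 7444 counts (log2 FC 0.95) and NOP56, of the box C/D particles, from 2720 and 2880 to 4376 and 4465 counts (0.67). GAR1, of the box H/ACA particles, fell from 1148 and 861 to 360 and 420 counts (-1.35). NME1, a nucleoside diphosphate kinase, fell from 4791 and 3541 to 2189 and 1863 counts (-1.02).

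Among the gene lists described here, histones had the largest share of members that were higher. Of 118 listed symbols, pseudogenes included, 51 were tested, and 36 of these (70.6%) were higher and 2 (1 without mivebresib replicate 2) lower, with a median log2 FC of 1.18. Past both thresholds 20 were upregulated and none downregulated. Histone genes as a whole took 0.19% to 0.23% of all counts in the controls and 0.29% to 0.30% with mivebresib. Most genes of the HIST1 and HIST2 clusters encode the replication-dependent histones, whose main transcripts end in a stem-loop without a poly(A) tail, and these libraries were made as mRNA libraries.

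The most abundant of the members past both thresholds was HIST1H2AC (chromosome 6, 26124145 to 26139116, plus strand), which rose from 1279 and 1206 counts in the control libraries to 3983 and 3847 with mivebresib (log2 FC 1.67, SE 0.08, adjusted p = 2.3e-06). HIST1H2BD (chromosome 6, 26158146 to 26171349, plus strand) rose from 1002 and 748 to 3422 and 3227 counts (log2 FC 1.94, SE 0.14, adjusted p = 1.9e-05), and HIST2H2BE (chromosome 1, 149884459 to 149886652, minus strand) from 546 and 534 to 2675 and 2343 counts (log2 FC 2.23, SE 0.10, adjusted p = 2.7e-06). HIST1H2BG rose from 144 and 84 to 850 and 835 counts (log2 FC 2.90, adjusted p = 1.2e-05). HIST1H2BE rose from 54 and 54 to 447 and 426 counts (log2 FC 3.02, adjusted p = 2.7e-06). HIST2H4A rose from 124 and 101 to 1048 and 928 counts (log2 FC 3.15, adjusted p = 4.2e-06). HIST1H3B had 3 counts over both control libraries and 60 over both treated ones, a ratio of 20.5 with an exact 95% interval of 6.67 to 102 that covers counting error only. HIST2H4A overlaps HIST2H3C on the opposite strand, and HIST2H4A and HIST2H4B, like other histone genes, have near-identical copies whose shares of the reads are uncertain. Of genes outside the replication-dependent class, the linker histone gene H1F0 rose from 4992 and 4554 to 9385 and 9332 counts (log2 FC 0.98, adjusted p = 3.4e-05) and the H3.3 gene H3F3B from 9148 and 7401 to 12420 and 12023 counts (log2 FC 0.58, adjusted p = 0.0024). H2AFZ, which encodes the variant H2A.Z, fell from 12254 and 9068 to 7507 and 6837 counts (log2 FC -0.56, adjusted p = 0.011), and the call was lost without mivebresib replicate 2 (adjusted p = 0.087). HIST1H3E fell from 585 and 552 to 255 and 288 counts (log2 FC -1.05, adjusted p = 7.2e-05).

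Promoters are shown for the 3 upregulated histone genes with the highest mean CPM with mivebresib, since these members moved together. They are the 150 bases before the start of HIST2H2BE at chr1:149886683-149886832 (minus strand), HIST1H2AC at chr6:26124022-26124171 and HIST1H2BD at chr6:26157971-26158120 (both plus strand), from RefSeq, GRCh38.p14.
HIST2H2BE: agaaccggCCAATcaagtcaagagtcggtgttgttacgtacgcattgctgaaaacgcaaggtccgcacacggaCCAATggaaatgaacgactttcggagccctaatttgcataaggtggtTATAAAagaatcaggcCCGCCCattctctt
HIST1H2AC: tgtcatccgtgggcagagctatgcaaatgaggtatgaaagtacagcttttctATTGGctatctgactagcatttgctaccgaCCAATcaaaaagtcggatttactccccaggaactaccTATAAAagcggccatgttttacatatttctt
HIST1H2BD: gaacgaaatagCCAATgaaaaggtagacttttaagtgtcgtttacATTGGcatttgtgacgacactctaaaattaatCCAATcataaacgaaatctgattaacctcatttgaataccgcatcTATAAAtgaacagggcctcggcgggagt
The 3 histone promoters each hold a TATAAA between -31 and -28 and at least 2 copies of CCAAT, in either orientation, and HIST2H2BE also holds a GGGCGG on the other strand at -14. These are matches of letters, at 7.14% of all promoters in the table for TATAAA and 24.4% for CCAAT.

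For these histone genes mivebresib differed from both HDAC inhibitors. HIST1H2AC had 494 and 470 with quisinostat and 671 and 691 with romidepsin, below both controls, and mivebresib differed by 3.21 (SE 0.08, adjusted p = 3.5e-07) from quisinostat and by 2.60 (SE 0.08, adjusted p = 1.1e-06) from romidepsin on the log2 scale. HIST1H2BG had 56 and 59 with quisinostat and 72 and 79 with romidepsin, with differences of 4.06 (SE 0.21, adjusted p = 2.2e-06) from quisinostat and 3.56 (SE 0.20, adjusted p = 5.5e-06) from romidepsin. HIST2H2BE had 437 and 377 with quisinostat and 416 and 414 with romidepsin, with differences of 2.82 (SE 0.11, adjusted p = 9.7e-07) from quisinostat and 2.67 (SE 0.11, adjusted p = 1.6e-06) from romidepsin. H1F0 differed less, at 8156 and 7729 with quisinostat and 9734 and 9774 with romidepsin, and the difference of mivebresib from romidepsin was 0.02 (SE 0.08, adjusted p = 0.88). HEXIM1 and BRD2 were also higher with mivebresib than with either HDAC inhibitor. HEXIM1 had 2701 and 2478 with quisinostat and 2476 and 2641 with romidepsin, with differences of 1.67 (SE 0.08, adjusted p = 2e-06) from quisinostat and 1.57 (SE 0.08, adjusted p = 4.5e-06) from romidepsin. BRD2 had 3531 and 3404 with quisinostat and 4784 and 4908 with romidepsin, with differences of 1.83 (SE 0.08, adjusted p = 1.3e-06) from quisinostat and 1.23 (SE 0.08, adjusted p = 9.7e-06) from romidepsin.

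**Figure D3:**
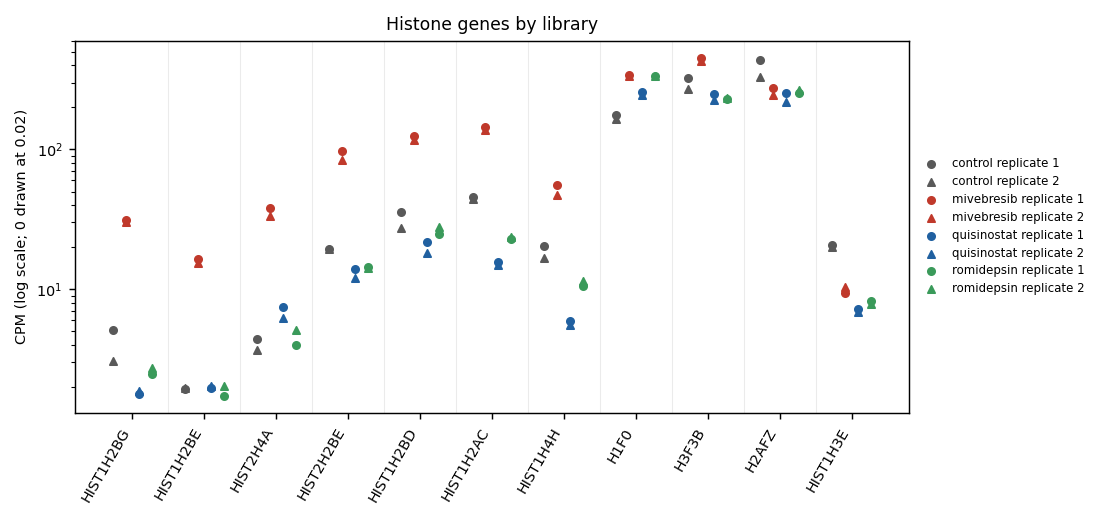
CPM of 11 histone genes on a log axis in all 8 libraries, gray for control, red for mivebresib, blue for quisinostat and green for romidepsin, circles for replicate 1 and triangles for replicate 2. From HIST1H2BG to HIST1H4H the red points lie above every other library, for H1F0 they lie with romidepsin, and for H2AFZ and HIST1H3E they lie below the controls.

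Over all tested genes, 1499 (9.94%) were higher with mivebresib than in each of the 3 other groups at an adjusted p below 0.05, and 1973 (13.1%) were lower. The number higher was 1010 without mivebresib replicate 1 and 990 without mivebresib replicate 2. The genes furthest from both HDAC inhibitors on the low side were C1orf116, B3GALT2, CEMIP, ESRP1, GBP3, MYOZ2, RHOJ, SCG5, KLHL38 and GPRC5A. C1orf116, an androgen-regulated gene, fell from 406 and 457 to 40 and 23 counts (log2 FC -3.76) and had 1706 and 1711 with quisinostat and 1392 and 1432 with romidepsin, with differences of -5.56 (SE 0.18, adjusted p = 6.3e-07) from quisinostat and -5.40 (SE 0.18, adjusted p = 1.1e-06) from romidepsin. CEMIP had 2771 and 3013 with quisinostat and 2750 and 2381 with romidepsin, close to its controls. On the high side HIST1H2BG, HIST2H2BE and HIST1H2AC led, and OSGIN1, an oxidative stress gene, stood at 318 and 292 counts in the control libraries and 739 and 685 with mivebresib and 147 and 127 with quisinostat and 162 and 198 with romidepsin.

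Most pigment cell genes were lower, by unequal amounts. Of the list of melanocyte transcription factors and pigmentation genes, 38 were tested, 4 of them higher (2 without mivebresib replicate 2) and 26 lower, with a median log2 FC of -0.98, and 11 were downregulated past both thresholds. ABCB5, a transporter that marks melanoma cells able to start tumors, fell from 1319 and 1241 counts in the control libraries to 72 and 95 with mivebresib (log2 FC -3.92, SE 0.12, adjusted p = 7.8e-07). CAPN3, a calpain of melanocytes and muscle, fell from 1160 and 767 to 128 and 117 counts (log2 FC -2.96, adjusted p = 9.9e-06). CITED1, a transcriptional cofactor of pigment cells, fell from 2622 and 1786 to 301 and 260 counts (log2 FC -2.96, adjusted p = 9.9e-06). The melanosome exchanger gene SLC24A5 fell from 1432 and 1886 to 251 and 252 counts (log2 FC -2.71, adjusted p = 5e-06). RAB27A, a GTPase of melanosome transport, fell from 2635 and 2219 to 524 and 546 counts (log2 FC -2.17, adjusted p = 2.7e-06). RAB38, a GTPase of melanosome formation, fell from 1094 and 799 to 228 and 183 counts (log2 FC -2.19, adjusted p = 2.7e-05). The endothelin receptor gene EDNRB fell from 955 and 1294 to 224 and 256 counts (log2 FC -2.22, adjusted p = 3.3e-05). The tetraspanin gene TSPAN10 fell from 1100 and 1172 to 208 and 214 counts (log2 FC -2.42, adjusted p = 5.1e-06). The receptor gene KIT fell less, from 5916 and 8496 to 3715 and 4230 counts (log2 FC -0.85, adjusted p = 0.0047).

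The structural and enzymatic melanosome genes with the most transcripts changed less. TYRP1 did not pass the threshold (log2 FC -0.19, SE 0.16, adjusted p = 0.37), except without control replicate 1, where its log2 FC was -0.40 (adjusted p = 0.015). PMEL was at -0.51 with the call lost without control replicate 2 (-0.25), without either mivebresib library and with the 4 libraries alone. In contrast to the members that fell, TFAP2A, a neural crest factor that acts with MITF, rose from 4080 and 3669 to 5730 and 5789 counts (log2 FC 0.58, SE 0.08, adjusted p = 0.00044). RAB27A, SLC24A5, CITED1 and TSPAN10 overlap PIGB, MYEF2, PIN4 and NPLOC4, in that order, on the opposite strand. In bulk samples, fewer cells of a type and less RNA per cell cannot be told apart.

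Of factors of the neural crest and of epithelial to mesenchymal transition, 29 were tested, 8 of them higher (5 without mivebresib replicate 1 and 5 without mivebresib replicate 2) and 14 lower, with a median log2 FC of -0.34, and 9 were downregulated past both thresholds against 2 upregulated. The neuregulin receptor gene ERBB3 fell from 103 and 130 to 24 and 25 counts (log2 FC -2.23, adjusted p = 6.9e-05). The neural crest factor FOXD3 fell from 141 and 99 to 29 and 34 counts (log2 FC -1.91, adjusted p = 0.0002). FN1, fibronectin, fell from 160615 and 240443 to 71615 and 85152 counts (log2 FC -1.35, adjusted p = 0.0011), with the lower control at replicate 1 and both treated libraries below it. NGFR, the neurotrophin receptor of neural crest cells, rose from 46 and 51 to 471 and 437 counts (log2 FC 3.23, adjusted p = 1.6e-06).

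The Gq pathway drives UM through mutant GNAQ or GNA11, with signals through phospholipase C, protein kinase C and RASGRP3 to the MAPK cascade. GNA11 stood at 3755 and 3791 counts in the control libraries and 3836 and 3734 with mivebresib (log2 FC 0.02, adjusted p = 0.88), and GNAQ fell from 5275 and 5037 to 3607 and 3749 counts (log2 FC -0.47, adjusted p = 0.0013). RASGRP3 (chromosome 2, 33436324 to 33564750, plus strand), the RAS activator of UM cells, fell from 3908 and 3645 to 756 and 827 counts (log2 FC -2.24, SE 0.08, adjusted p = 1e-06) and PRKCE, protein kinase C epsilon, from 1813 and 1632 to 284 and 318 counts (log2 FC -2.50, SE 0.09, adjusted p = 1e-06). PRKCB, protein kinase C beta, rose from 631 and 509 to 1340 and 1269 counts (log2 FC 1.21, SE 0.10, adjusted p = 4.1e-05). Of all members of the pathway list, 24 were tested, 4 of them higher (8 without control replicate 1 and 2 without mivebresib replicate 2) and 7 lower, with a median log2 FC of 0.04.

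Genes downstream of MAPK signaling changed in both directions. Of this list, 24 were tested, 9 of them higher (5 without mivebresib replicate 1) and 13 lower, with a median log2 FC of -0.36. The ETS factor gene ETV4 fell from 389 and 295 to 93 and 61 counts (log2 FC -2.13, adjusted p = 9.9e-05). Its relative ETV1 fell from 934 and 965 to 341 and 325 counts (2.83-fold lower, adjusted p = 7.1e-06). DUSP6, a feedback phosphatase, fell from 2119 and 2111 to 1180 and 1207 counts (log2 FC -0.81, adjusted p = 4.7e-05). SPRY1, a feedback inhibitor, fell from 341 and 362 to 188 and 182 counts (log2 FC -0.91, adjusted p = 0.00036). PHLDA1 rose from 2371 and 2171 to 4454 and 4341 counts (log2 FC 0.97, adjusted p = 3.2e-05). ETV4 overlaps DHX8 on the opposite strand.

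Immediate early factors also went both ways. EGR3 fell from 507 and 431 counts in the control libraries to 31 and 25 with mivebresib (log2 FC -4.05, SE 0.18, adjusted p = 2.3e-06). EGR1, of the same family, rose from 1525 and 1417 to 2197 and 2018 counts (log2 FC 0.53, adjusted p = 0.001). Within AP-1, FOS fell from 1596 and 1650 to 527 and 606 counts (log2 FC -1.51, adjusted p = 9.9e-06). JUN, a partner of FOS, rose from 3928 and 3932 to 7051 and 6995 counts (log2 FC 0.85, adjusted p = 4.8e-05). JUND, of the JUN family, rose from 2669 and 1627 to 5390 and 5006 counts (log2 FC 1.29, adjusted p = 0.001). The orphan nuclear receptor gene NR4A3 fell from 1022 and 952 to 375 and 310 counts (log2 FC -1.51, adjusted p = 2.4e-05). KLF2, a Krüppel-like factor of quiescent endothelium and T cells, rose from 102 and 78 to 441 and 399 counts (log2 FC 2.23, adjusted p = 1.6e-05). ATF3, a stress-induced factor, rose from 422 and 318 to 1194 and 1245 counts (log2 FC 1.73, adjusted p = 3.3e-05). Over the list, 30 were tested, 12 of them higher and 7 lower, with a median log2 FC of 0.16.

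YAP1, the coactivator of TEAD factors that mutant GNAQ can activate in UM, fell from 7682 and 7024 to 3083 and 3387 counts (log2 FC -1.17, SE 0.08, adjusted p = 1.6e-05). Its paralog gene WWTR1 (TAZ) fell from 4164 and 4009 to 2669 and 2638 counts (log2 FC -0.61, adjusted p = 0.00021). Known targets went both ways. THBS1, thrombospondin 1, fell from 693 and 1013 to 59 and 71 counts (log2 FC -3.70, SE 0.22, adjusted p = 8.3e-06). ANKRD1, an ankyrin repeat protein, rose from 711 and 632 to 3384 and 3387 counts (log2 FC 2.35, SE 0.09, adjusted p = 1.5e-06). CYR61, a matrix-associated signal, rose from 10050 and 14368 to 20661 and 20600 counts (log2 FC 0.77, adjusted p = 0.0063). CTGF, at 7096 and 8373 counts in the control libraries and 10223 and 9542 with mivebresib, did not pass the threshold (adjusted p = 0.058) and passed it without control replicate 2 (adjusted p = 0.0071), in DESeq2, in limma-voom and with library size or upper-quartile factors. Over the list, 31 were tested, 5 of them higher (9 without control replicate 2) and 9 lower, with a median log2 FC of -0.09.

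Among receptor tyrosine kinases, 29 were tested, 8 of them higher and 10 lower, with a median log2 FC of -0.16 (0.16 without control replicate 2 and 0.06 without mivebresib replicate 1), and 6 were upregulated and 4 downregulated past both thresholds, beside 3.96% and 4.36% of all genes. Genes of 3 fibroblast growth factor receptors rose. FGFR4 rose from 47 and 92 to 428 and 403 counts (log2 FC 2.59, adjusted p = 8.7e-05). FGFR3 rose from 525 and 632 to 1640 and 1795 counts (log2 FC 1.58, adjusted p = 4e-05). FGFR2 rose from 37 and 37 to 126 and 144 counts (log2 FC 1.88, adjusted p = 0.0005). EGFR rose from 474 and 615 to 1422 and 1664 counts (log2 FC 1.51, adjusted p = 9.3e-05). The collagen receptor gene DDR2 fell from 5877 and 8820 to 2365 and 2649 counts (log2 FC -1.54, adjusted p = 0.00031). TYRO3, of the TAM family, fell from 3528 and 4285 to 1626 and 1579 counts (log2 FC -1.28, adjusted p = 6.9e-05).

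Many cell cycle genes were lower. Of G1 cyclins, their kinases and inhibitors and the E2F factors, 33 were tested, 5 of them higher and 16 lower, with a median log2 FC of -0.27. E2F2, an activator of S phase genes, fell from 610 and 597 counts in the control libraries to 100 and 97 with mivebresib (log2 FC -2.60, SE 0.10, adjusted p = 1.5e-06). E2F8, an atypical E2F, fell from 107 and 103 to 15 and 18 counts (log2 FC -2.65, adjusted p = 7.3e-05). FOXM1, the factor of the G2 and M program, fell from 3335 and 2517 to 1046 and 970 counts (log2 FC -1.52, adjusted p = 4.8e-05). CDK2, the kinase of S phase entry, fell from 5226 and 4397 to 1706 and 1828 counts (log2 FC -1.43, adjusted p = 1e-05). Its activator CDC25A fell from 591 and 514 to 231 and 210 counts (log2 FC -1.31, adjusted p = 4.1e-05). CDK2 overlaps PMEL on the opposite strand. E2F7, a repressor of the family, rose from 344 and 397 to 852 and 1080 counts (log2 FC 1.39, adjusted p = 6.9e-05). The CDK4 and CDK6 inhibitor gene CDKN2B rose from 353 and 341 to 805 and 675 counts (log2 FC 1.10, adjusted p = 9.9e-05). CDKN1A (p21) stood at 8801 and 7414 counts in the control libraries and 7889 and 7248 with mivebresib (log2 FC -0.09, adjusted p = 0.56). Of the mitotic list 36 of 45 members were lower and 1 higher, with a median of -0.68, and AURKA was the 1 past both thresholds, from 1984 and 1886 to 632 and 564 counts (log2 FC -1.68, adjusted p = 4.7e-06). The exception was MAD1L1 of the spindle checkpoint, which rose from 322 and 345 to 636 and 609 counts (log2 FC 0.91, adjusted p = 0.00018). Of the replication list 29 of 45 were lower and 1 higher (2 without control replicate 1, 2 without control replicate 2 and 0 without mivebresib replicate 2), with GINS2 furthest (-1.40). Of homologous recombination and Fanconi genes, 38 were tested, 2 of them higher (5 without control replicate 2, 0 without mivebresib replicate 1 and 1 without mivebresib replicate 2) and 18 lower, with a median log2 FC of -0.37, led by FANCD2 (-1.24).

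Regulators of apoptosis of the BCL2 family shifted on both sides. The proapoptotic gene BCL2L11 (chromosome 2, 111119378 to 111168447, plus strand), which encodes BIM, rose from 557 and 480 counts in the control libraries to 1887 and 1893 with mivebresib (log2 FC 1.88, SE 0.10, adjusted p = 4.9e-06). BBC3 (PUMA), another BH3-only gene, rose from 155 and 97 to 302 and 301 counts (log2 FC 1.27, adjusted p = 0.00074). A further one, BIK, rose from 22 and 10 to 65 and 69 counts (log2 FC 2.07, adjusted p = 0.0041), on few counts, with a log2 FC of 2.72 without control replicate 1 and 1.63 without control replicate 2. The survival gene BCL2 fell from 2015 and 2128 counts in the control libraries to 904 and 956 with mivebresib (log2 FC -1.14, SE 0.08, adjusted p = 1.9e-05). BCL2L2, which encodes the survival protein BCL-w, fell from 2605 and 2513 to 1323 and 1306 counts (log2 FC -0.95, adjusted p = 2.4e-05). MCL1 rose from 6726 and 6564 to 9430 and 9217 counts (log2 FC 0.50, adjusted p = 0.001), and BCL2L1 (BCL-XL), at 4363 and 3678 counts in the control libraries and 4113 and 3722 with mivebresib, did not pass the threshold (log2 FC -0.02, adjusted p = 0.88). Over the 20 tested members 7 were higher and 6 (3 without mivebresib replicate 2) lower.

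The death receptor gene FAS fell from 535 and 692 to 202 and 214 counts (log2 FC -1.55, adjusted p = 0.00018). The repair gene DDB2 fell from 696 and 676 to 257 and 289 counts (log2 FC -1.32, adjusted p = 3.7e-05). GADD45A, a growth arrest gene, rose from 3613 and 3009 to 10761 and 10573 counts (log2 FC 1.70, adjusted p = 7.9e-06).

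Genes of several inflammatory signals fell to few or no counts. CCL2, the chemokine of monocytes, fell from 255 and 204 counts in the control libraries to 2 and 7 with mivebresib (log2 FC -5.62, SE 0.33, adjusted p = 7e-06), and was at -5.01 without mivebresib replicate 1 and -6.74 without mivebresib replicate 2. IL6, a proinflammatory cytokine, fell from 136 and 85 to 7 and 6 counts (log2 FC -4.05, SE 0.35, adjusted p = 4.2e-05). CXCL10 had 52 counts over the controls and 1 over the treated libraries, a ratio of 0.0197 with an exact 95% interval of 0.000489 to 0.114. CXCL11 went from 22 and 12 counts to none in either treated library, at least 5.6-fold lower when each of these is set at 3 counts. CSF1, the growth factor of macrophages, fell from 2886 and 3671 to 677 and 605 counts (log2 FC -2.35, SE 0.15, adjusted p = 1.1e-05). IL32, a cytokine, fell from 1398 and 1071 to 397 and 343 counts (log2 FC -1.72, adjusted p = 3.4e-05). Of the list of chemokines, interleukins and NF-kB response genes, 29 were tested, 2 of them higher (1 without mivebresib replicate 2) and 11 lower, with a median log2 FC of -0.45, and 7 were past both thresholds, all of them lower.

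More interferon-stimulated genes were lower than higher. Of the list, 47 were tested, 2 of them higher and 28 lower (14 without mivebresib replicate 2), with a median log2 FC of -0.91. The number lower was 19 without control replicate 1, and the median was then -0.53, against -0.59 without mivebresib replicate 2. TRIM22 (chromosome 11, 5689689 to 5737089, plus strand), an antiviral ubiquitin ligase, fell from 701 and 634 counts in the control libraries to 35 and 41 with mivebresib (log2 FC -4.12, SE 0.14, adjusted p = 1e-06), with close replicates in both groups. GBP1, a guanylate-binding protein, went from 18 and 15 counts to none, at least 5.45-fold lower on the same floor of 3 counts, and GBP3 fell from 94 and 100 to 18 and 15 counts (log2 FC -2.54, adjusted p = 1.5e-05). OAS2 fell from 1251 and 616 to 238 and 103 counts (log2 FC -2.43, adjusted p = 0.0019), and here both pairs of replicates were far apart. Its log2 FC was -1.86 without control replicate 1, -2.84 without control replicate 2, -3.18 without mivebresib replicate 1 and -1.94 without mivebresib replicate 2. IRF7, the interferon regulatory factor, rose from 185 and 131 to 485 and 344 counts (log2 FC 1.41, adjusted p = 0.0011). IFI6, an interferon-induced inhibitor of apoptosis, rose from 2320 and 2642 to 6155 and 3686 counts (log2 FC 1.00, adjusted p = 0.0071). Its treated libraries were far apart, and its log2 FC was 0.565 without mivebresib replicate 1 and 1.333 without mivebresib replicate 2.

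Genes that present antigens or check immune cells changed unevenly. The immunoproteasome gene PSMB8 fell from 478 and 384 to 119 and 90 counts (log2 FC -2.03, SE 0.17, adjusted p = 4.3e-05). The class I light chain gene B2M rose from 8942 and 10161 to 13051 and 13269 counts (log2 FC 0.47, SE 0.10, adjusted p = 0.0041). HLA-E, a ligand of natural killer cell receptors, rose from 6383 and 7456 to 10760 and 9972 counts (log2 FC 0.59, adjusted p = 0.0029). Over the class I list, 20 were tested, 4 of them higher (8 without control replicate 2, 2 without mivebresib replicate 1 and 2 without mivebresib replicate 2) and 7 lower (4 without mivebresib replicate 1 and 4 without mivebresib replicate 2), with a median log2 FC of -0.21. TNFRSF14 (HVEM), the ligand of BTLA, fell from 1703 and 1745 to 302 and 346 counts (log2 FC -2.40, SE 0.09, adjusted p = 1.5e-06). PDCD1LG2, which encodes PD-L2, fell from 253 and 370 to 51 and 61 counts (log2 FC -2.46, adjusted p = 5.5e-05). CD274, which encodes PD-L1, had 19 and 17 counts in the control libraries and 13 and 13 with mivebresib, a level at which a change of -0.45 did not pass the test (SE 0.39). Of ligands of checkpoints and natural killer cells, 16 were tested, 2 of them higher (1 without mivebresib replicate 1 and 1 without mivebresib replicate 2) and 3 lower (6 without control replicate 1), with a median log2 FC of -0.18 (0.17 without control replicate 2). Of MHC class II genes, 9 were tested, 2 of them higher and 0 lower, with a median log2 FC of 0.27. IFI30, a thiol reductase of antigen processing, rose from 157 and 159 to 764 and 732 counts (log2 FC 2.25, adjusted p = 2.3e-06).

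**Figure D4:**
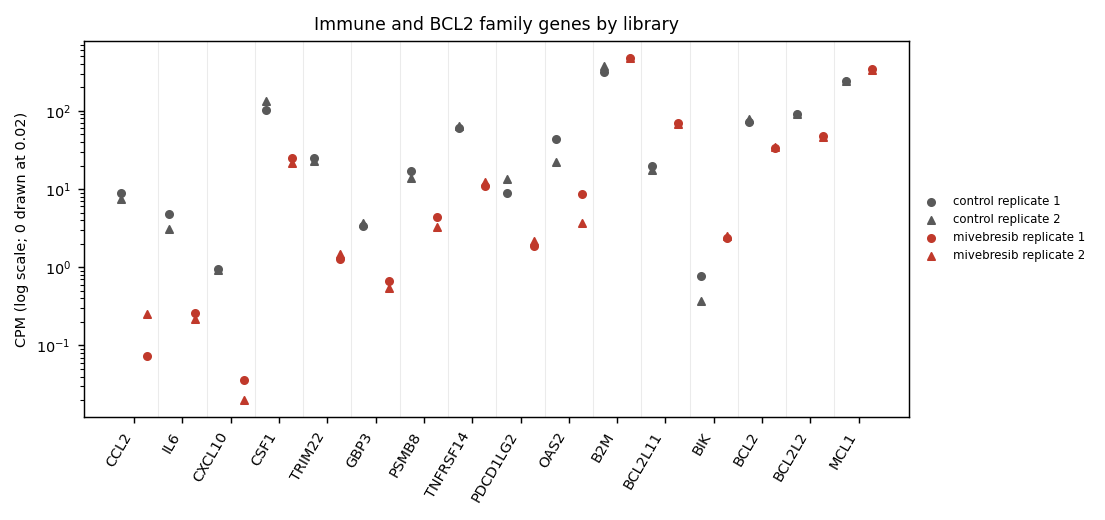
CPM of 16 immune and BCL2 family genes on a log axis in the control (gray) and mivebresib (red) libraries, circles for replicate 1 and triangles for replicate 2, with a value of 0 drawn at 0.02. CCL2, IL6 and TRIM22 drop by more than a factor of 10, OAS2 shows its spread within both groups, and BCL2L11 rises where BCL2 falls.

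Stress response genes were more often higher than lower. Of genes of the unfolded protein and integrated stress responses, 36 were tested, 18 of them higher and 3 lower (5 without control replicate 1 and 7 without control replicate 2), with a median log2 FC of 0.41. ASNS, asparagine synthetase, rose from 910 and 935 counts in the control libraries to 3182 and 3283 with mivebresib (log2 FC 1.82, SE 0.08, adjusted p = 2.6e-06). DDIT3 (CHOP) rose from 249 and 186 to 504 and 579 counts (log2 FC 1.33, adjusted p = 0.00034). HSPA5, the main chaperone of the endoplasmic reticulum, rose from 14598 and 21894 to 37222 and 40290 counts (log2 FC 1.09, adjusted p = 0.0022). CHAC1, a glutathione-degrading enzyme of the ATF4 arm, fell from 1800 and 1465 to 1066 and 902 counts (log2 FC -0.72, adjusted p = 0.0015). XBP1, a factor of the same responses, fell from 3594 and 4266 to 2771 and 2583 counts (log2 FC -0.54, adjusted p = 0.0037). Of the 5 tested metallothionein genes 3 rose, with MT2A going from 2820 and 1757 to 5562 and 5268 counts (log2 FC 1.26, adjusted p = 0.00097), and the others did not pass the test. Of heat shock genes, 38 were tested, 10 of them higher (26.3%) and 9 lower (23.7%), beside 22.2% and 24.1% of all tested genes. Their median log2 FC was 0.08, with HSPA1B higher (0.99) and HSPA2 lower (-1.94).

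Of lysosome and autophagy genes, 80 were tested, 24 of them higher (42 without control replicate 2, 13 without mivebresib replicate 1 and 15 without mivebresib replicate 2) and 7 lower (11 without control replicate 1, 13 without control replicate 2 and 4 without mivebresib replicate 2), with a median log2 FC of 0.21. NEU1, lysosomal sialidase, rose from 2011 and 2930 to 6430 and 6110 counts (log2 FC 1.35, adjusted p = 0.0003). The kinase gene ULK1, which starts autophagy, rose from 827 and 825 to 1882 and 2018 counts (log2 FC 1.25, adjusted p = 8.7e-06). The autophagy receptor gene SQSTM1 rose from 13452 and 11835 to 31115 and 27831 counts (log2 FC 1.24, adjusted p = 3.3e-05). TFEB, a master factor of lysosome genes, fell from 143 and 140 to 48 and 39 counts (log2 FC -1.69, adjusted p = 0.0002). Of sterol and lipid genes, 41 were tested, 12 of them higher (29.3%) and 10 lower (24.4%), beside 22.2% and 24.1% of all tested genes. Their median log2 FC was 0.09 (-0.04 without control replicate 1 and -0.01 without mivebresib replicate 1). The cholesterol exporter gene ABCG1 rose from 69 and 70 to 245 and 274 counts (log2 FC 1.91, adjusted p = 9.1e-05). Of glycolysis genes, 32 were tested, 5 of them higher (3 without mivebresib replicate 1) and 8 lower (4 without mivebresib replicate 1 and 5 without mivebresib replicate 2), with a median log2 FC of -0.04.

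Counts for some families of short genes turned on which control library was used. Of cytosolic ribosomal protein genes, 82 were tested, 0 of them higher (9 without control replicate 1) and 4 lower (1 without control replicate 1, 62 without control replicate 2, 1 without mivebresib replicate 1 and 1 without mivebresib replicate 2), with a median log2 FC of -0.24 (0.07 without control replicate 1). The median was -0.48 without control replicate 2. Of nuclear-encoded respiratory chain subunits, 79 were tested, 1 of them higher (8 without control replicate 1) and 21 lower (58 without control replicate 2, 13 without mivebresib replicate 1 and 9 without mivebresib replicate 2), with a median log2 FC of -0.25. The 13 mitochondrially encoded genes had none past the threshold, and 8 higher without control replicate 2.

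Of splicing factors, 70 were tested, 7 of them higher (2 without mivebresib replicate 2) and 22 lower (14 without mivebresib replicate 1 and 13 without mivebresib replicate 2), with a median log2 FC of -0.18. Of the enzymes and complexes of histone acetylation and methylation, 62 were tested, 5 of them higher (9 without control replicate 2 and 3 without mivebresib replicate 1) and 20 lower, with a median log2 FC of -0.05. The acetyltransferase gene KAT2B (PCAF) fell from 916 and 859 to 310 and 278 counts (log2 FC -1.58, adjusted p = 7e-06). The H3K9 methyltransferase gene SUV39H1 fell from 519 and 507 to 233 and 208 counts (log2 FC -1.21, adjusted p = 0.00018). EZH1, of the Polycomb complex, rose from 447 and 521 to 1175 and 1212 counts (log2 FC 1.31, adjusted p = 3.9e-05). HDAC3, the deacetylase of corepressor complexes, rose from 2015 and 1567 to 3034 and 3198 counts (log2 FC 0.81, adjusted p = 0.00037).

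Of collagens, integrins and laminins, 58 were tested, 4 of them higher (1 without control replicate 1, 16 without control replicate 2, 1 without mivebresib replicate 1 and 1 without mivebresib replicate 2) and 15 lower, with a median log2 FC of -0.20 (0.03 without control replicate 2). COL4A1, a basement membrane collagen gene, fell from 374 and 588 to 104 and 91 counts (log2 FC -2.29, adjusted p = 0.00011). COL4A2, its neighbour on the opposite strand, fell from 1743 and 2568 to 611 and 697 counts (log2 FC -1.71, adjusted p = 0.00021). ITGA4, of the VLA-4 integrin, fell from 575 and 858 to 149 and 168 counts (log2 FC -2.17, adjusted p = 0.0001). ITGA3, of a laminin receptor, rose from 8164 and 11488 to 20722 and 21491 counts (log2 FC 1.11, adjusted p = 0.00083). Of matrix proteases and their inhibitors, 42 were tested, 11 of them higher (26.2%) and 8 lower (19%), beside 22.2% and 24.1% of all tested genes. Their median log2 FC was 0.10 (-0.04 without control replicate 1). TIMP3, the tissue inhibitor bound to the matrix, fell from 3038 and 3941 to 1250 and 1208 counts (2.82-fold lower, adjusted p = 7.6e-05).

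HOX genes, the positional factors of the body axis, were lower where they changed. Of 26 tested, 13 were lower, 10 of them past both thresholds, and none was higher, with a median log2 FC of -1.39, or -1.30 with genes without counts set at the bound of 3 counts per library. Of the tested members HOXC9 had the most counts, and it fell from 770 and 569 to 114 and 99 counts (log2 FC -2.64, adjusted p = 1e-05). HOXC10 fell from 403 and 282 to 54 and 63 counts (log2 FC -2.53, adjusted p = 2e-05). HOXC6 fell from 489 and 472 to 102 and 107 counts (log2 FC -2.19, adjusted p = 3.1e-06). HOXC9 and HOXC6 overlap on the same strand, so their counts may not be separate.

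Secreted signals and guidance cues changed in both directions. The BMP antagonist gene GREM1 fell from 3314 and 4409 counts in the control libraries to 498 and 529 with mivebresib (log2 FC -2.90, SE 0.15, adjusted p = 4.2e-06). BMP4, a BMP ligand, fell from 178 and 153 to 18 and 27 counts (log2 FC -2.86, adjusted p = 3.9e-05). Of BMP, TGF-beta and ID genes, 35 were tested, 8 of them higher (22.9%) and 9 lower (25.7%). These shares lay near the 22.2% and 24.1% of all tested genes, and the median log2 FC was 0.01 (-0.04 without control replicate 1). DKK1, the secreted WNT antagonist, fell from 6831 and 8910 to 1415 and 1414 counts (log2 FC -2.47, SE 0.14, adjusted p = 7e-06). LGR4, a receptor that enhances WNT signals, rose from 712 and 1011 to 2400 and 2745 counts (log2 FC 1.59, adjusted p = 0.00013). Of the WNT list, 45 were tested, 15 of them higher and 14 lower (8 without mivebresib replicate 1 and 9 without mivebresib replicate 2), with a median log2 FC of 0.09 (-0.06 without control replicate 1 and -0.01 without mivebresib replicate 2). Of Notch genes, 26 were tested, 9 of them higher and 8 lower, with a median log2 FC of 0.36 (0.11 without control replicate 1 and 0.59 without control replicate 2). LFNG, a glycosyltransferase of Notch, rose from 36 and 40 to 140 and 153 counts (log2 FC 1.95, adjusted p = 0.00048). Of axon guidance genes, 63 were tested, 22 of them higher and 17 lower, with a median log2 FC of 0.32 (0.10 without control replicate 1 and 0.61 without control replicate 2). Past both thresholds 10 were up- and 6 downregulated, beside 3.96% and 4.36% of all genes. The ephrin gene EFNB2 rose from 25 and 32 to 231 and 234 counts (log2 FC 3.03, adjusted p = 9.1e-06). SEMA3F, a secreted semaphorin, rose from 57 and 58 to 440 and 411 counts (log2 FC 2.90, adjusted p = 2.3e-06). The netrin receptor gene UNC5B rose from 118 and 162 to 761 and 867 counts (log2 FC 2.55, adjusted p = 9.1e-06). NRP1, a receptor of semaphorins and VEGF, fell from 482 and 660 to 106 and 168 counts (log2 FC -2.05, adjusted p = 0.00015).

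Neuronal and synaptic genes were higher in a larger share than all genes, 44.4% against 22.2%, and lower in 11.1% against 24.1%. Of the list, 54 were tested, 24 of them higher and 6 lower, with a median log2 FC of 0.67. Past both thresholds 13 were up- and 2 downregulated, beside 3.96% and 4.36% of all genes. The dendritic microtubule protein gene MAP2 rose from 620 and 613 to 2943 and 3316 counts (log2 FC 2.35, adjusted p = 1.5e-06). SYP, of synaptic vesicles, rose from 14 and 26 to 159 and 160 counts (7.99-fold higher, adjusted p = 2.5e-05). SYN1, synapsin I, rose from 7 and 5 to 62 and 56 counts (log2 FC 3.29, adjusted p = 4.2e-05). The neuronal tubulin gene TUBB2B fell from 6741 and 5690 to 3285 and 2931 counts (log2 FC -0.99, adjusted p = 0.00019). SLC6A3, the dopamine transporter, rose from 13 and 16 to 155 and 168 counts (log2 FC 3.48, adjusted p = 1.3e-05), and of the solute carriers of amino acids and transmitters, 47 were tested, 14 of them higher (9 without mivebresib replicate 1) and 9 lower (15 without control replicate 1), with a median log2 FC of 0.24 (-0.05 without control replicate 1). Of potassium channels 65 were tested, and 12 were higher and 12 lower, 18.5% each, below the 22.2% and 24.1% of all genes. Past both thresholds 8 of them were higher and 3 lower. Of ABC transporters, 40 were tested, 13 of them higher and 7 lower (4 without mivebresib replicate 1), with a median log2 FC of 0.35.

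**Figure D5:**
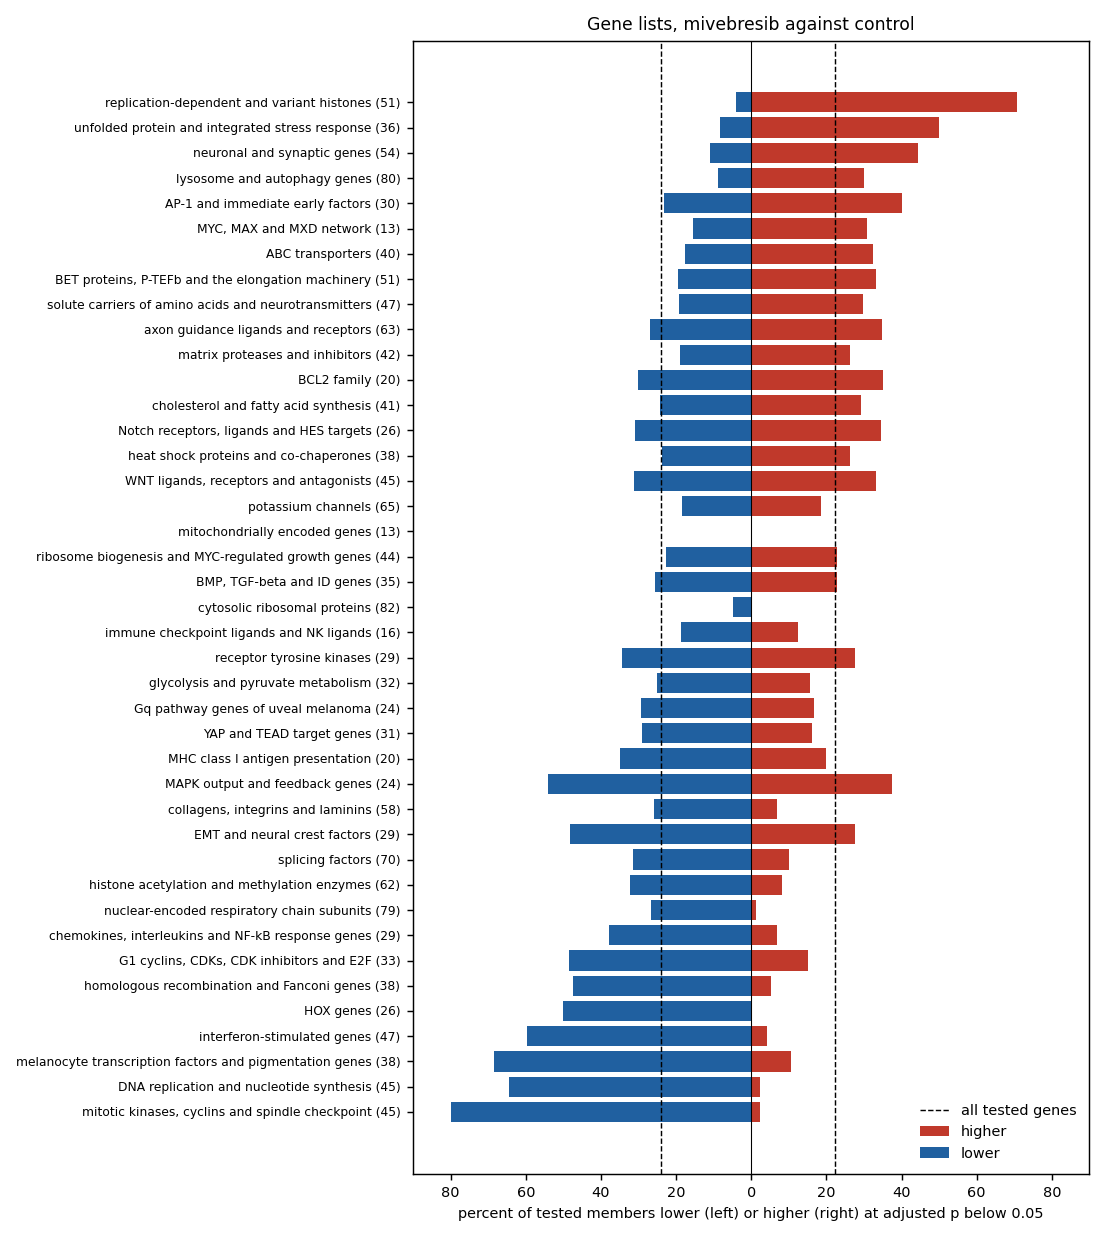
Bars give the percent of tested members that were higher (red, right) or lower (blue, left) at an adjusted p below 0.05 for the gene lists shown, with at least 10 tested members each, whose number stands in brackets. The dashed lines mark all tested genes, 22.2% and 24.1%, and histones reach 70.6% on the right while mitotic genes reach 80% on the left.

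In the fit of all libraries, the median fold change varied little with gene length. Genomic length from the GENCODE annotation (GRCh38) was matched for 14337 of the 15085 tested genes, and over 13818 protein-coding genes the Spearman correlation of length with log2 FC was 0.037, a description across genes that share the same libraries. Medians over 10 equal bins of length ran from -0.069 to 0.052. The bins at both ends changed sign with the control library used. The median of the shortest genes was 0.072 without control replicate 1 and -0.166 without control replicate 2. That of the longest genes was -0.082 without control replicate 1 and 0.056 without control replicate 2. The bin of the longest genes, from 177 to 2300 kb, held the largest share of called genes, 6.08% up- and 7.24% downregulated, against 2.32% and 3.69% in the bin from 33.9 to 47.4 kb. Its genes also had the lowest median log2 CPM, 3.88 against 4.88. At a log2 CPM of at least 3 the longest genes still had the largest share downregulated, 5.58%, but 1.82% upregulated, below the 2.07% of the shortest genes. Of 270 protein-coding genes without introns, 9.63% were upregulated and 6.67% downregulated, and without the histone genes these shares were 5.74% and 7.38% of 244. Other named genes overlap a gene on the opposite strand. These are ABCB1 (RUNDC3B), B3GALT2 (CDC73), BAIAP3 (TSR3), BCL2L2 (HOMEZ, PPP1R3E), BRD2 (HLA-DMA), COL4A1 (COL4A2), COL4A2 (COL4A1), DDIT3 (MARS, MBD6), DGAT1 (HSF1), FAS (ACTA2), FOXM1 (ITFG2, RHNO1), GINS2 (GSE1), H3F3B (UNK), HDGF (PRCC), IL6 (STEAP1B), PMEL (CDK2), PSMB8 (PSMB9), SQSTM1 (MGAT4B), SYN1 (ARAF, TIMP1), THBS1 (FSIP1), TIMP3 (SYN3), TRIM22 (TRIM5), TUBB2B (PSMG4).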

How the data were processed

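RNA of MP38 cells from separate wells was sequenced as strand-specific mRNA libraries. The deposited counts were raw read counts per gene symbol, which the authors made with BioJupies (build hg38 per the labels). The aligner, the annotation and the strand setting are not given in the sources used here. A deposited table of log10 values equalled log10(CPM + 1) of the counts and was not tested, and a deposited quantile-normalized score, of a scale the authors did not name, was used only as an alternative. Counts were fitted in edgeR 4.0.16 (R 4.3.3, limma 3.58.1) with TMM factors, filterByExpr, a quasi-likelihood test with 1 coefficient for each of the 4 groups in all 8 libraries, and Benjamini-Hochberg adjustment over 15085 genes. The thresholds were an adjusted p of 0.05, alone or together with a log2 FC beyond 1.5. Direct contrasts with the HDAC inhibitors came from the same fit. No column was left unused.

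The comparison, its gene lists and its tests were chosen with earlier results of these data known. Named genes were members of the lists (those with a defining role, then those with the largest fold changes past the adjusted p), the 10 largest rises and falls at an average log2 CPM of at least 3, the 10 most abundant genes past both thresholds in each direction, and the 10 in each direction furthest from both HDAC inhibitors. Genes with locus names or near copies could be passed over. A gene with no count in a group was given a bound at 3 counts per library, and 1 to 3 counts a ratio with an exact 95% interval, and both cover counting error only. At 28483235 to 29359024 counts per library, genes below about 20 counts carry wide intervals. Counts were also simulated for mivebresib against control, with the same dispersion for every gene and group. Of 14664 genes tested, 200 with a mean CPM of at least 1 were changed. There edgeR recovered 100% of genes changed by a log2 FC of 2 and 97% of those changed by 1, with 6 false calls. The simulation held neither the wider spread between the control libraries nor as many changed genes as were called here. It therefore gives no error rate for these calls. Alternatives were DESeq2 1.42.0, limma-voom, other scalings and filters, the 4 libraries alone, a replicate block and leaving out each library. Promoters were matched for 75.6% of tested genes, under the 80% set as a minimum, so shares of motifs among called genes are not reported. Some genes and a gene list are not reported here.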

Additional observations from a re-analysis of the deposited data

How the results depend on the processing

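Upregulated and downregulated genes past both thresholds numbered 598 and 657. They numbered 554 and 636 with DESeq2, 623 and 654 with limma-voom, 616 and 631 with library size alone, 634 and 613 with upper-quartile factors, 590 and 679 with no filter and 531 and 590 with the 4 libraries alone. Of the 1255 genes called, 1171 were also called by DESeq2 and 1220 by limma-voom, and between 1007 and 1069 when 1 library was left out. Leaving out 1 library gave 528 to 663 genes higher and 614 to 664 lower. A filter at a mean CPM of at least 1 left 398 higher and 496 lower, since fewer genes were tested. Adjusted p below 0.05 alone gave 3342 and 3628, and the quantile-normalized score 1383 and 1471 by limma on that threshold, where the cause of the difference was not tested. The labels do not state whether replicate numbers pair the samples. Deviations of same-numbered libraries from their group means correlated between -0.162 and 0.158 over the 6 pairs of groups. With 2 libraries per group this does not decide whether they pair. With a replicate block 579 genes were higher and 653 lower, and 31 interferon-stimulated genes were lower, against 28 without it. Genes higher than in each of the 3 other groups numbered 1499, and 990 to 1010 without either mivebresib library (1186 with library size alone), and those lower 1973, 1476 to 1539 and 2246. Of 2310 values of named genes under 11 settings, 2289 kept their side of the threshold. A further 14 of 4 genes lost the call (BRD3, CDK9, PMEL, H2AFZ) and 7 of 3 genes gained it (CTGF, TYRP1, CD68). No gene with a call in either fit changed sign. Genes without a call could change sign, as TYRP1, BCL2L1, CDKN1A and GNA11 did in some settings. List medians moved by more than the spread between replicates in 64 values and by less in 518. List counts moved by over 1.5 times, or were 0 in 1 or both of the fits compared, in 232 values. Counts that stayed at 0 are thus among the 232, and the other 912 moved by less. The median of the HOX list moved from -1.39 to -1.30 with genes without counts at their bound.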

Other observations

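Genes of thiol metabolism and the NRF2-linked oxidant response stood out among the abundant upregulated genes, and a list of 32 such genes was then drawn up after their values were seen. All 32 were tested, and 17 were higher at an adjusted p below 0.05 in edgeR and 5 lower, beside 22.2% and 24.1% of all tested genes. Their median log2 FC was 0.52. Past both thresholds 2 were higher and 1 lower, beside 3.96% and 4.36% of all tested genes. These counts describe a list chosen on these samples and are not independent evidence of its direction. Genes of glutathione synthesis and cystine uptake were higher: GCLC, the catalytic subunit of glutamate-cysteine ligase, went from 1030 and 898 counts to 2372 and 2391 (log2 FC 1.32), its modifier subunit gene GCLM from 2134 and 1881 to 3428 and 3438 (log2 FC 0.79), and the cystine transporter gene SLC7A11 from 1685 and 2461 to 4512 and 5444 (log2 FC 1.27). Glutathione reductase, GSR, went from 3031 and 2529 to 5060 and 5281 (log2 FC 0.91), and NQO1, a quinone reductase, from 7916 and 6793 to 12576 and 12676 (log2 FC 0.79).

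PGD, an NADPH-producing enzyme of the pentose phosphate pathway, was at a log2 FC of 0.93, whereas the later enzymes TKT (0.01) and TALDO1 (-0.03) did not pass the threshold. NFE2L2, which encodes NRF2, went from 5408 and 4897 counts to 6967 and 6718 (log2 FC 0.42, adjusted p = 0.0034), and KEAP1, its inhibitor, stood at 0.06 (adjusted p = 0.58). Members that were lower included ABCC2, an export pump of glutathione conjugates, from 3596 and 5112 to 1058 and 1361 (log2 FC -1.84), PIR (log2 FC -1.07), TRIM16L (log2 FC -0.89) and BLVRB, a biliverdin reductase (log2 FC -0.76).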
